A study of Equus caballus with 2 samples.

Results

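AREG-positive fibroblasts were defined here as cells of the TGF-β1 treated library with at least 3 UMIs (unique molecular identifiers, each standing for 1 captured transcript) of AREG and fewer than 3 UMIs of IGFBP3. They were selected on these 2 genes, and 508 of the 4513 cells that passed the cell filters met the rule (11.3%, 95% counting interval 10.3 to 12.2). They were compared with 2202 AREG-negative cells of the same library, which held 0 AREG UMIs and fewer than 3 IGFBP3 UMIs. AREG and IGFBP3 were left out of every comparison across genes. The other cells of the library were 414 with 1 or 2 AREG UMIs and fewer than 3 IGFBP3 UMIs, and the 1389 with 3 or more IGFBP3 UMIs.

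The cells were fibroblasts cultured from the endometria of 4 mares, grown on collagen-coated hydrogels, first in medium with serum and during the treatment in medium with bovine serum albumin in its place. One set received 10 ng/ml human recombinant TGF-β1 during 24 h, and the control set received the medium alone. The cells of the 4 mares were pooled before capture, so each condition was 1 droplet library with no replicate. The mares were not separated here, so the part of mare in AREG status was not tested, no p-value is given, and every interval covers counting error only.

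Amphiregulin, the product of AREG, belongs to the epidermal growth factor (EGF) family. These ligands are made as membrane-anchored precursors, are cut loose by metalloproteases such as ADAM17, and activate EGFR and other ERBB receptors on the same or neighbouring cells. In the uterus they are known as paracrine signals between stroma and epithelium. TGF-β1 is a cytokine that drives fibroblasts toward a matrix-producing, contractile state, and IGFBP3, a binding protein of insulin-like growth factors, is among the genes it is known to induce.

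The TGF-β1 library held 5124 barcodes and 224189951 UMIs, and its kept cells held 219731144 UMIs with a median of 43142 per cell. The control library held 4384 barcodes, of which 3865 were kept with a median of 50313 UMIs. The libraries shared 6 barcodes, of which 2 passed the filters in both. The AREG-positive cells had a median of 46848 UMIs and 6394 detected genes, against 40794 UMIs and 6093 genes in the AREG-negative cells. A fixed minimum of 3 UMIs is met more easily in a deeply sequenced cell, so values at equal depth, with every cell thinned at random to 20000 UMIs, are given beside shares of cells that are compared. The median share of mitochondrial UMIs was 1.26% in the positive and 1.22% in the negative cells.

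AREG was spread unevenly over the cells. Among cells with fewer than 3 IGFBP3 UMIs, 70.5% held no AREG UMI, 13.3% held 1 or 2, 5.28% held 3 to 5, 4.87% held 6 to 14 and 6.11% held 15 or more. The last group, 191 cells, carried 76.7% of the AREG UMIs of this population. At equal depth the 5 shares were 76.9%, 11.5%, 5.1%, 3.95% and 2.48%. Within the AREG-positive cells the median was 10 AREG UMIs, the quartiles were 4 and 22, and the highest cell held 277. Together they had 385 AREG CPM (UMIs of the gene per 1000000 UMIs of the cells) and 68.2% of the AREG UMIs of all kept cells. These values follow from the selection and are given as a description.

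**Figure D1:**
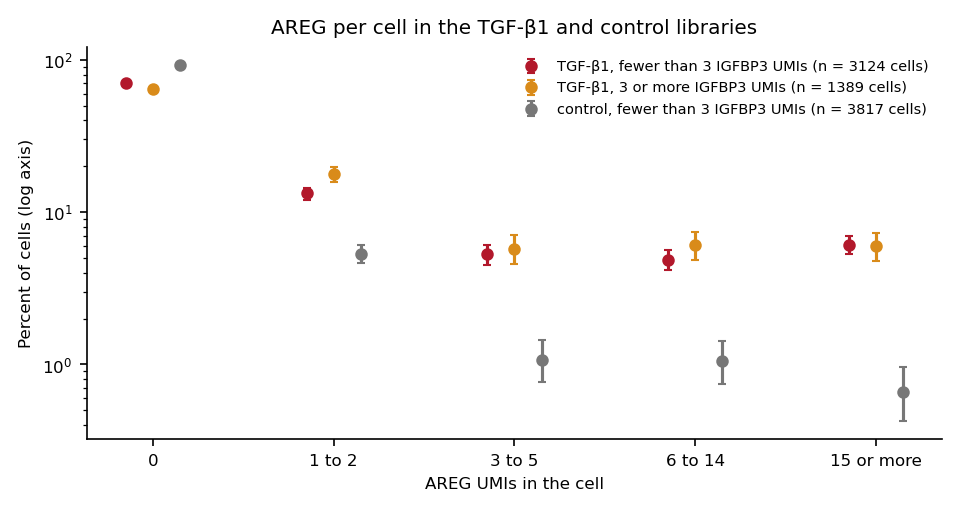
Percent of cells (log axis) with 0, 1 to 2, 3 to 5, 6 to 14, and 15 or more AREG UMIs, at full depth, for TGF-β1 cells with fewer than 3 IGFBP3 UMIs (red), TGF-β1 cells with 3 or more (gold) and control cells with fewer than 3 (grey); bars are exact binomial counting intervals at the 95% level. The 2 TGF-β1 populations run close together, and the 3 upper classes each hold between 4.87% and 6.11% of the red population.

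Unevenness of this degree was uncommon. After thinning, the variance of AREG over the kept TGF-β1 cells was 21.2 times its mean, where the median over 7600 genes with at least 10 CPM was 1.14 and 15 of those genes were higher. Among the 2916 genes with a level within 2-fold of that of AREG, CXCL8 alone was higher, at 113. EREG, the neighbouring EGF family gene described below, had a ratio of 10.7.

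AREG-positive cells were also present outside the selected population. At 20000 UMIs per cell, 11.1% of all TGF-β1 cells (10.2 to 12) and 1.47% of all control cells (1.12 to 1.91) held 3 or more AREG UMIs. Before thinning, 106 control cells, 2.74% of those kept, had at least 3 AREG and fewer than 3 IGFBP3 UMIs. High IGFBP3 and high AREG were not kept to separate cells: 17.8% of the IGFBP3-positive TGF-β1 cells held 3 or more AREG UMIs against 16.3% of the others, and after thinning the values were 9.33% and 11.5%. The order of these 2 shares turned with depth, so none was read from it. No cell type that should lack AREG was identified in the library, and the part of free RNA in low AREG counts was not tested.

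Cells just inside and just outside the rule were compared once, as a description. The 110 cells with exactly 2 AREG UMIs had 382 CPM of EREG and 11.7 CPM of BTC, and the 70 cells with exactly 3 had 546 and 14.6 CPM. The 56 AREG-positive cells with exactly 2 IGFBP3 UMIs had 425 CPM of EREG, and the 41 cells just outside, with exactly 3, had 434 CPM, while ANKRD1 was at 321 and 641 CPM in these 2 sets.

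The label of fibroblast held in the selected cells. The 10 fibroblast markers summed to 24576 CPM in the AREG-positive and 24366 CPM in the AREG-negative cells, with collagens, VIM and DCN among them. Of the 10, 5 were higher and 5 lower, from PDGFRA at a log2 ratio of -0.42 to COL1A2 at 0.10. EPCAM and CDH1, which define epithelium, had 0 UMIs in the positive cells, and the 8 epithelial markers found summed to 17.6 against 12.9 CPM. Of these only KRT7 and KRT8 reached 1 CPM, with a median log2 ratio of 0.46 that became -0.37 without the cells of cluster 3 described below, and the part of these transcripts in the results was not tested. The 7 endothelial markers summed to 0.733 and 0.622 CPM. PTPRC, the pan-leukocyte marker, had 0 UMIs in both groups, and of the immune markers only CD68 reached 1 CPM. The pericyte markers summed to 76.1 and 76.2 CPM. Cells with at least 3 cycling markers were 1.77% of the positive (0.813 to 3.34) and 1.14% of the negative cells (0.736 to 1.67).

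Across the transcriptome the AREG-positive cells differed little from their neighbours, and the genes with the largest difference upward were BTC and EREG, both EGF family ligands like AREG. Of the 7588 genes that averaged 10 CPM or more over both groups, 20 (0.264%) were more than 1.5-fold higher in the AREG-positive cells and 22 (0.290%) were more than 1.5-fold lower. Only 5 genes passed 2-fold, BTC and EREG on the higher side and CFD, COL4A3 and SOX5 on the lower. The median log2 ratio of AREG-positive over AREG-negative cells was -0.02, and the 5th and 95th percentiles were -0.22 and 0.16. These counts depend in part on the CPM minimum, since 4 of the higher genes (BTC, GATA6, NETO1 and SYN3) and 6 of the lower (COL4A3, TGM2, SNAP25, COL23A1, CA4 and TPST2) were under 10 CPM in 1 group and reached the mean through the other. The positive cells were not spread evenly over clusters of similar cells, and once the negative cells were reweighted to the same cluster makeup, 5 genes were higher and 6 lower. Reweighting to the same UMI totals gave 12 and 33.

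EREG encodes epiregulin, a ligand of EGFR and ERBB4. Per cell at 20000 UMIs, the AREG-positive cells held a median of 9 EREG UMIs, from 0 to 97, and the AREG-negative cells a median of 1, from 0 to 50. The quartiles were 4 and 17 in the positive and 0 and 5 in the negative cells, so the interquartile ranges overlapped narrowly and the full ranges widely. EREG was missing from 4.53% of the positive cells (2.89 to 6.72) and from 36.6% of the negative cells (34.5 to 38.6), and 3 or more EREG UMIs were found in 85.6% and 38.3%. In summed counts the levels were 594 and 200.3 CPM, a log2 ratio of 1.57 (1.54 to 1.60).

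**Figure D2:**
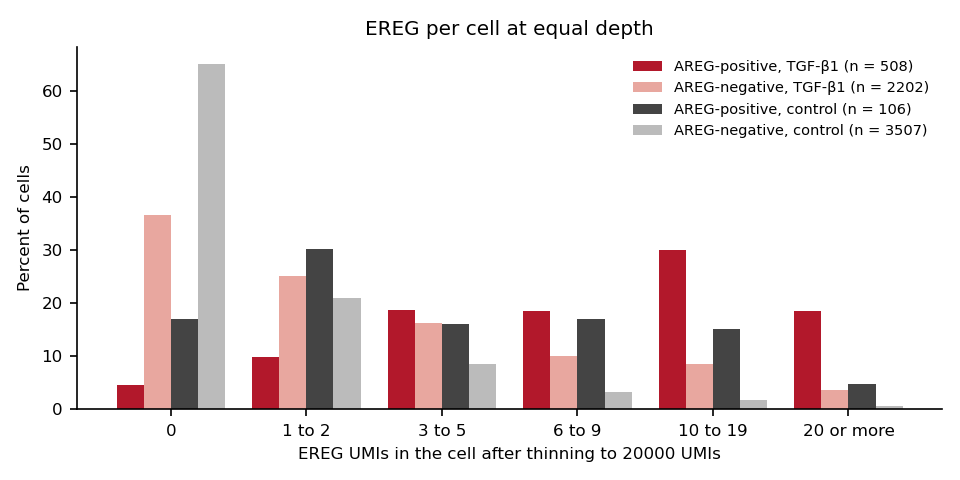
Percent of cells by their number of EREG UMIs after thinning every cell to 20000 UMIs, in AREG-positive (dark) and AREG-negative (light) cells of the TGF-β1 (red) and control (grey) libraries. Cells with 20 or more EREG UMIs make up 18.5% of the AREG-positive and 3.54% of the AREG-negative TGF-β1 cells, and both libraries hold AREG-negative cells rich in EREG.

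BTC encodes betacellulin, which also binds EGFR and ERBB4, and was scarce in these cells. At equal depth 85.2% of the AREG-positive and 95.9% of the AREG-negative cells held no BTC UMI, and the highest cells held 8 and 9. The positive cells nevertheless had 15.5 CPM against 4.7 CPM, which were 422 and 453 UMIs and gave a log2 ratio of 1.72 (1.52 to 1.91). EREG and BTC were found together in 14.6% of the positive (11.6 to 17.9) and 3.72% of the negative cells (2.97 to 4.6).

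The remaining ligands of the family did not share this difference. HBEGF, the heparin-binding ligand, was at 43 CPM in the AREG-positive and 53.5 CPM in the AREG-negative cells, a log2 ratio of -0.32 (-0.41 to -0.22). TGFA, encoding TGF-α, was at 7.04 and 6.77 CPM (log2 ratio 0.06, -0.18 to 0.29). NRG1, a neuregulin that signals through ERBB3 and ERBB4, was at 11.7 and 16.4 CPM (-0.49, -0.67 to -0.32). EPGN, NRG2 and NRG4 were under 1 CPM in both groups, and EGF and NRG3 had 0 UMIs in the positive cells and 2 and 4 UMIs in the negative cells. Of the 10 family members besides AREG, 5 had at least 1 CPM, with 3 above and 2 below zero and a median of 0.06.

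EREG and BTC are also the nearest neighbours of AREG. In the RefSeq annotation of the horse assembly TB-T2T, which was used for gene order only, the protein-coding genes on chromosome 3 run RCHY1, PARM1, BTC, AREG, EREG, EPGN, MTHFD2L. The genes farther out differed less. PARM1, with 61 and 143 UMIs, had a log2 ratio of 0.59 (0.14 to 1.03), RCHY1 had 0.12 (-0.22 to 0.46) and MTHFD2L had 0.13 (0.0006 to 0.26). EPGN, beside EREG, was at 0.293 and 0.477 CPM with 8 and 46 UMIs.

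Of the receptors and the machinery that releases and dampens these ligands, 9 genes had at least 1 CPM, with 2 above and 7 below zero and a median log2 ratio of -0.05. EGFR was at 62.6 CPM in the AREG-positive and 64.8 CPM in the AREG-negative cells (log2 ratio -0.05, -0.13 to 0.03), and ERBB2, the coreceptor without a ligand of its own, was at 4.91 and 4.23 CPM (0.21, -0.08 to 0.50). ERBB3 had 1 UMI and ERBB4 had 2 UMIs in all AREG-positive cells. The sheddases ADAM17 and ADAM10 had log2 ratios of -0.09 (-0.19 to 0.01) and 0.01 (-0.10 to 0.11). ERRFI1, a feedback inhibitor of EGFR, had -0.15 (-0.23 to -0.07), LRIG1, which lowers receptor levels, had -0.02, and CBL, the ubiquitin ligase that marks EGFR for degradation, had -0.12. The ratios ran from RHBDF2, an inactive rhomboid that assists ADAM17, at -0.50 (-1.14 to 0.09) to ERBB2.

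Genes downstream of the receptors were not higher as a group. The list of MAPK feedback genes and ERK targets had a median log2 ratio of -0.10 over 18 genes, and the immediate early transcription factors had -0.11 over 13 genes, where all 12003 genes with at least 1 CPM had -0.03. In the first list 5 genes lay above and 13 below zero, in the second 4 and 9, and among all genes 4837 and 7166. DUSP4, a MAP kinase phosphatase, was at 15.2 and 12.2 CPM (0.32), while EGR1 was at 55.7 and 75.6 CPM (-0.44), JUN at 129 and 156 CPM (-0.27) and FOSB at 8.51 and 12.3 CPM (-0.53). CCND1, which encodes cyclin D1, was at 145 and 174 CPM (-0.27). Among targets of cyclic AMP signalling, of which AREG is one, the median was -0.13 over 15 genes, of which 4 lay above and 11 below zero. RGS2, a regulator of G protein signalling, was at 12.5 and 15.8 CPM (-0.34). On the higher side PDE4D, which degrades cyclic AMP, was at 286 and 201 CPM (0.50), and ADM, encoding adrenomedullin, was at 42.9 and 33.6 CPM (0.35).

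ANKRD1, which encodes an ankyrin repeat protein and is a well-known target of YAP and TEAD, was also among the 20 higher genes. Its level was 467 CPM in the AREG-positive and 248 CPM in the AREG-negative cells, a log2 ratio of 0.91 (0.88 to 0.94). Per cell at equal depth the medians were 4 and 1 UMIs, and the highest cells held 90 and 96. F3, encoding tissue factor, was at 231 and 148 CPM (0.65, 0.61 to 0.69), and CCN2, encoding connective tissue growth factor, at 449 and 328 CPM (0.45, 0.42 to 0.48). Of the 16 YAP and TEAD targets that averaged 10 CPM or more, ANKRD1 and F3 passed 1.5-fold, against 0.264% of all genes tested, and with the cluster makeup matched both missed it, at 0.49 and 0.36. Over the 20 targets with at least 1 CPM, 12 lay above and 8 below zero, and the median was 0.03.

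The other higher genes were of mixed function. SPP1, encoding the secreted phosphoprotein osteopontin, was at 21.1 and 11.2 CPM (0.92, 0.77 to 1.06). The matrix genes among them were LAMA3, a laminin chain (21.2 and 13.2 CPM, 0.69), MFAP4, a microfibril-associated protein (80.2 and 50.6 CPM, 0.66), CCN5, a matricellular protein (184 and 121 CPM, 0.61), and COL11A1, a fibrillar collagen chain (66.8 and 44 CPM, 0.60). GATA6 and MYCL are transcription factors (log2 ratios 0.62 and 0.60), ANXA3 is a calcium-dependent phospholipid-binding annexin (0.78), and KCNMB2 is a subunit of calcium-activated potassium channels (0.63). MTUS1, SYN3, NETO1, LMO7, PPM1H, BCAR3 and a gene without a symbol, ENSECAG00000031302, had log2 ratios between 0.60 and 0.75. INHBA, which encodes the βA subunit of activin, missed the limit at 383 and 259.7 CPM (0.56, 0.53 to 0.59).

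Among genes that averaged 10 CPM or more, CFD had the lowest ratio. It encodes complement factor D, a serine protease of the alternative complement pathway, and was at 12.5 and 45.6 CPM, a log2 ratio of -1.87 (-2.03 to -1.71). At equal depth 91.7% of the positive and 82.2% of the negative cells held no CFD UMI, and the highest cells held 20 and 112, so a minority of CFD-rich cells was seen mainly among the negative cells. COL4A3, a basement membrane collagen chain, was at 7.11 and 17.3 CPM (-1.28, -1.50 to -1.07), and the transcription factor SOX5 at 14 and 28.1 CPM (-1.01, -1.17 to -0.86).

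The other 19 lower genes had log2 ratios between -0.83 and -0.60. SOD3, extracellular superoxide dismutase, was at 13.2 and 23.6 CPM (-0.83). FGF7, a stromal growth factor that acts on epithelium, was at 19 and 31.3 CPM (-0.72), and TNFSF10, encoding the death ligand TRAIL, at 23.4 and 37.5 CPM (-0.69). EDNRB, an endothelin receptor, had -0.68, TGM2, a transglutaminase that crosslinks proteins, -0.71, MGLL, a monoacylglycerol lipase, -0.69, and SLC22A3, an organic cation transporter, -0.79. CRABP2, which carries retinoic acid, was at 75.4 and 114 CPM (-0.60), and PRXL2A at 113 and 179 CPM (-0.67). The remaining lower genes were FAM216B, NREP, SNAP25, TRPM3, COL23A1, NELL2, MYRIP, CA4, VASH2 and TPST2.

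Genes known to respond to TGF-β1 went both ways. Over 19 of them the median log2 ratio was 0.04, with 7 of the intervals above zero and 5 below. Among all genes with at least 1 CPM, 9.88% and 19.0% had such intervals. All 19 averaged 10 CPM or more, and intervals are narrower for abundant genes, so these shares are not of like genes. The 19 ran from TGFB1, which encodes TGF-β1 itself, at 15 and 19.7 CPM (-0.39, -0.55 to -0.24) to CCN2 at 0.45. IL11 was at 1686 and 2003 CPM (-0.25). The contractile genes of smooth muscle had a median of 0.06 over 15 genes, with ACTA2 at 5042 and 4320 CPM (0.22) and ACTG2 at 1132 and 956 CPM (0.24). The 16 fibrillar and associated collagens had a median of -0.0027, from COL6A3 at -0.38 to COL11A1 at 0.60. Matrix proteins and cross-linking enzymes had -0.02 over 20 genes, with THBS1 at 1231 and 992 CPM (0.31) and DCN at 1597 and 1959 CPM (-0.29), and matrix proteases had -0.16 over 17 genes.

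The other fixed lists are given by their medians. The cytokines and NF-κB targets had a median of -0.17 over 9 genes, and only INHBA among them was above zero. Prostaglandin genes had -0.05 over 8 genes, with PTGS2, the inducible cyclooxygenase, at 64.4 and 75 CPM (-0.22). The IGF axis had -0.03 over 11 genes, with IGFBP5 at 754 and 527 CPM (0.52) and PAPPA at 62.4 and 75.9 CPM (-0.28). The steroid receptors and endometrial stromal genes had -0.12 over 11 genes, with 10 below zero, and cell cycle inhibitors and p53 targets had -0.18 over 9 genes. Mitosis genes had 0.06 over 17 genes and S phase genes -0.09 over 18. Medians of the interferon-stimulated (-0.01), complement (-0.03), stress response (0.02), glycolysis and hypoxia (0.05) and heat shock (0.0021) lists lay within 0.1 of zero.

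Several of these genes, chosen after their values were seen, were graded with AREG. From cells with 0 through 1 to 2, 3 to 5, 6 to 14, and 15 or more AREG UMIs, EREG was at 200.3, 329.5, 518, 535 and 703 CPM. BTC was at 4.7, 7.2, 13.9, 15.3 and 16.9 CPM over the same classes, with counting intervals that overlapped among the last 3. ANKRD1 was at 248, 352, 374, 382 and 608 CPM, so most of its difference lay at the first and the last step. CFD was at 45.6, 23.1, 19.5, 7.28 and 11 CPM. IL11 went the other way from ANKRD1, from 2003 to 1560 CPM, and HBEGF stayed between 40.6 and 53.5 CPM. Not every gene past 1.5-fold followed such an order. NETO1 was at 8.08, 9.78, 15.6, 11.1 and 13 CPM, and CA4 at 14.2, 3.72, 17.8, 10.0 and 1.71 CPM.

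**Figure D3:**
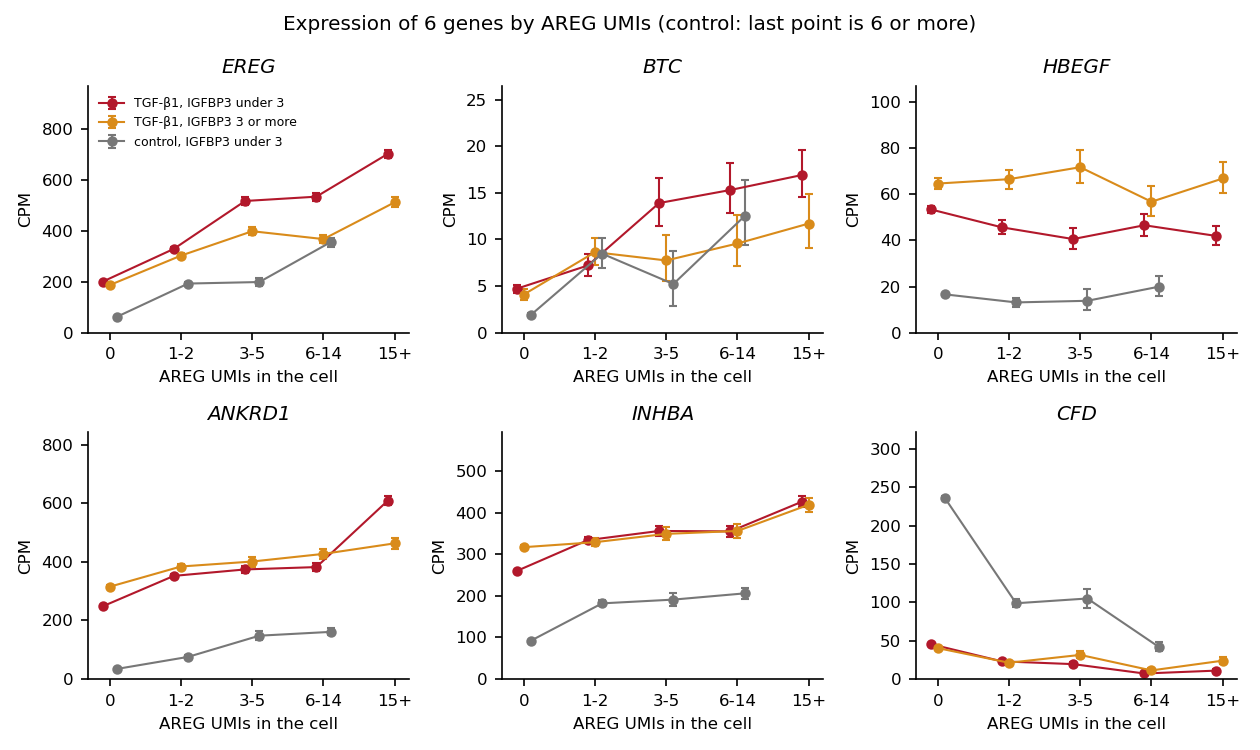
CPM of summed UMIs of EREG, BTC, HBEGF, ANKRD1, INHBA and CFD in cells grouped by their AREG UMIs, in TGF-β1 cells with fewer than 3 IGFBP3 UMIs (red), TGF-β1 cells with 3 or more (gold) and control cells with fewer than 3 (grey). Bars are exact binomial counting intervals. EREG and BTC are higher in the right-hand classes of all 3 populations and CFD is lower, while HBEGF shows no such order.

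AREG-positive cells were most frequent in 1 of 7 clusters, cluster 3, but most of them lay outside it, with 28.7% in cluster 0. The clusters were rebuilt from the TGF-β1 cells without AREG and IGFBP3 among the variable genes. Cluster 3 held 567 cells, 12.6% of the library, and 170 of them were AREG-positive (30%, 26.2 to 33.9), which was 33.5% of all AREG-positive cells and compares with 11.7% of the AREG-negative cells. In the other clusters the share was 8.3%, 7.07%, 10.5%, 11.1% and 10.4%, and in the smallest, cluster 6, none of 42 cells was AREG-positive, which a 95% interval bounds at 8.41%. These shares are over all cells of a cluster, and cells with 3 or more IGFBP3 UMIs could not be chosen. Among cells with fewer than 3, the share was 32% (28.1 to 36.2) in cluster 3, 12.7%, 10.5% and 16.1% in clusters 0 to 2, and 16.2% and 19.7% in clusters 4 and 5. With the rule applied at 20000 UMIs per cell these became 23.7% (20.2 to 27.5), 8.45%, 7.74%, 12.3%, 11.8% and 14.1%. The interval of cluster 5, with 13 such cells, reached 23% and so overlapped that of cluster 3. Cluster 3 was led by SPP1, CCN3, CCN5, LAMA3 and KRT7 among other genes and had too few fixed markers to be named. Its median mitochondrial share was 1.66%, the highest of the clusters. At full depth 6.35% of its cells were IGFBP3-positive, where the others had 21.4% to 47%. At 20000 UMIs per cell, 552 of its 567 cells held fewer than 3 IGFBP3 UMIs, as did 1361 of the 1760 cells of cluster 0. Cluster 5 was led by cycling markers, and 14 AREG-positive cells fell in it.

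**Figure D4:**
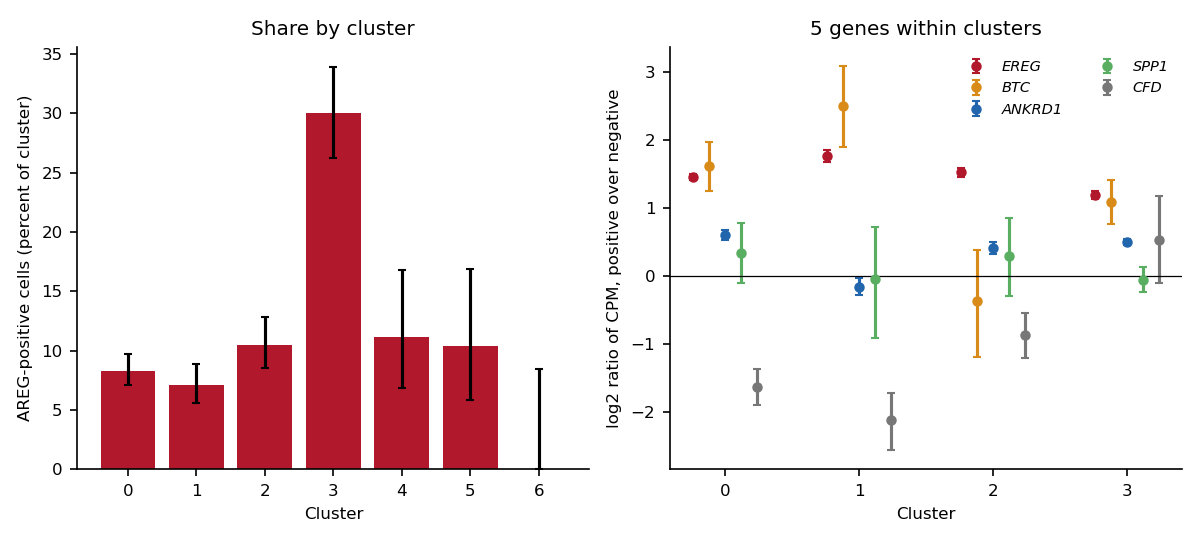
Left, AREG-positive cells as percent of all cells of each cluster, at full depth, with exact binomial counting intervals. Right, log2 ratio of CPM of AREG-positive over AREG-negative cells for EREG, BTC, ANKRD1, SPP1 and CFD within the 4 clusters that held at least 50 AREG-positive cells: EREG lies above 1 in each, and SPP1 near zero.

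Within clusters, the difference in EREG was kept and that in SPP1 was not. Only AREG and IGFBP3 had been kept out of the variable genes. SPP1, CCN3, CCN5 and LAMA3 led cluster 3, so their values within clusters and after matching follow in part from the clustering itself. Between AREG-positive and AREG-negative cells of clusters 0, 1, 2 and 3, EREG had log2 ratios of 1.45, 1.76, 1.52 and 1.19. BTC had 1.61, 2.49 and 1.08 in clusters 0, 1 and 3, and in cluster 2 it was at 3.72 and 4.82 CPM (-0.37, -1.20 to 0.38). SPP1 had 0.34, -0.05, 0.29 and -0.06, each with an interval that spanned zero. ANKRD1 had 0.60, -0.16, 0.41 and 0.49. CFD had -1.63, -2.12 and -0.87 in clusters 0 to 2, and 0.53 (with an interval that spanned zero) in cluster 3. With the AREG-negative cells reweighted to the cluster makeup of the positive cells, BTC (1.25), EREG (1.38), NETO1 (0.78), MFAP4 (0.59) and COL11A1 (0.62) remained past 1.5-fold on the higher side, and CFD (-1.42), COL4A3 (-0.91), SOX5 (-0.74) and SLC22A3 (-0.65) on the lower. SPP1 went to 0.02, CCN5 to 0.06 and ANKRD1 to 0.49. CCN3 and a gene without a symbol, ENSECAG00000045200, joined the lower genes at -0.75 and -0.66.

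The same genes were examined in cells that the rule had not used. In the TGF-β1 cells with 3 or more IGFBP3 UMIs, 247 cells held at least 3 AREG UMIs (median 61741 UMIs per cell) and 895 held none (median 43862). Of the 20 higher genes, 17 had a log2 ratio above zero there, as did 40.2% of all genes tested, and 3 passed 1.5-fold, as did 0.119%. Of the 22 lower genes, 18 were below zero, as were 59.8% of all genes, and 3 passed 1.5-fold, as did 0.158%. The exceptions were SYN3 (-0.07), LAMA3 (-0.11) and LMO7 (-0.02) among the higher genes, and CA4, MYRIP, SNAP25 and SOD3 among the lower. CA4 was at 2.34 CPM with 0 AREG UMIs, and at 1.29, 4.21 and 5.26 CPM with 3 to 5, 6 to 14, and 15 or more. The medians of the higher and lower genes were 0.34 and -0.26, against 0.68 and -0.71 in the cells where the genes were chosen. EREG was at 429 and 187 CPM (1.20, 1.15 to 1.24), BTC at 9.72 and 4.08 CPM (1.25, 0.94 to 1.57) and CFD at 22.4 and 40.4 CPM (-0.85), while ANKRD1 was at 431 and 315 CPM (0.45). Cycling markers moved with AREG here, all 8 being higher and their sum 65.9 against 36.4 CPM, and the 8 epithelial markers summed to 11.5 and 9.8 CPM with EPCAM at 0 UMIs in both groups. With cycling cells removed, 16 of 20 higher and 18 of 22 lower genes, chosen anew, lay on the same side here. With UMI totals matched, 11 of 12 and 28 of 33 did. The cause of the differences was not tested.

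In control cells, which had received no TGF-β1, the same direction was seen in most of the genes. The 106 AREG-positive cells (median 60851 UMIs) were compared with 3507 AREG-negative cells (median 49675). Of the 20 higher genes, 18 lay above zero, against 44.7% of all genes tested, and 15 passed 1.5-fold, against 0.830%. Of the 21 lower genes with more than 3 UMIs in each group, all were below zero, against 55.3% of all genes, and 15 passed 1.5-fold, against 1.87%. The exceptions among the higher genes were SYN3 at -0.07 and NETO1 at -0.34. EREG was at 295 and 62 CPM (2.25, 2.18 to 2.32), BTC at 9.69 and 1.89 CPM (2.36, 1.96 to 2.74), ANKRD1 at 156 and 34.6 CPM (2.17) and CFD at 66.4 and 236 CPM (-1.83). NRG1, which did not pass the limit after TGF-β1, was at 4.92 and 21.7 CPM in the control cells (-2.14). Keratins and cycling markers moved with AREG in the control cells. The 8 epithelial markers summed to 246 CPM in the positive and 123 CPM in the negative cells, of which 3 were higher and EPCAM was at 0 UMIs in the positive cells, and at equal depth KRT8 was found in 47.2% (37.4 to 57.1) and 24.3% (22.9 to 25.7) of cells. Of the 8 cycling markers 7 were higher, with sums of 70.9 and 49.8 CPM, and 2.83% (0.587 to 8.05) and 1.85% (1.43 to 2.36) of cells held at least 3 of them. With cycling cells removed, 19 of 20 higher and 21 of 21 lower genes, chosen anew, lay on the same side in control cells. The part of keratin transcripts in the control values was not tested. The level of EREG in AREG-negative TGF-β1 cells, 200.3 CPM, lay between those of AREG-negative and AREG-positive control cells.

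**Figure D5:**
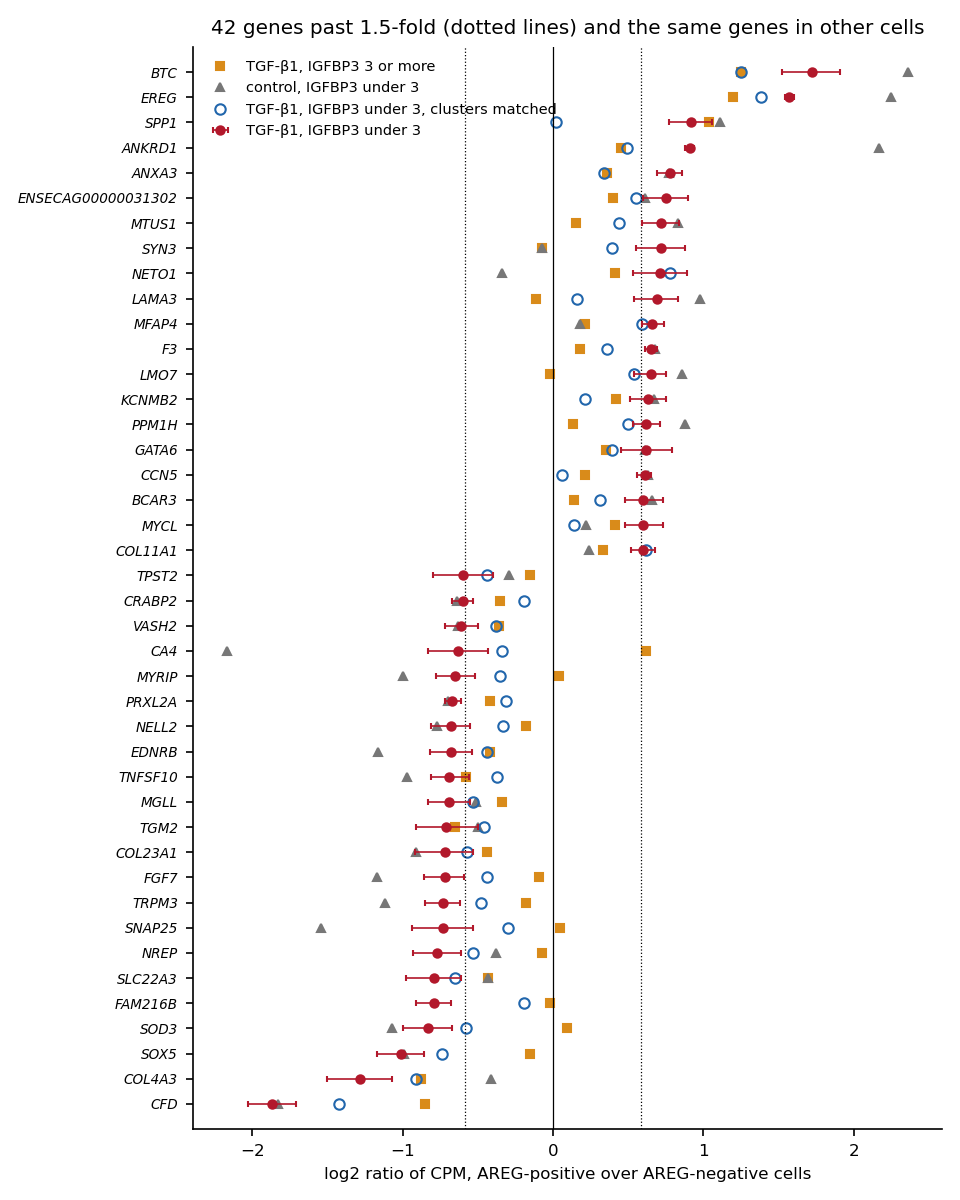
Log2 ratio of CPM of AREG-positive over AREG-negative cells for the 42 genes past 1.5-fold (dotted lines), in the selected TGF-β1 cells (red, with exact counting intervals), IGFBP3-positive TGF-β1 cells (gold squares), control cells (grey triangles) and the selected cells with clusters matched (open blue circles). BTC and EREG are far to the right in all 4, CFD is to the left in all 4, and most blue circles of the other genes lie between the dotted lines.

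Across the 3 comparisons, BTC, EREG and SPP1 passed 1.5-fold on the higher side and CFD on the lower side in each. The log2 ratios of SPP1 were 0.92, 1.04 and 1.11, but its counts were low, at 40 UMIs in the AREG-positive control cells. With cluster makeup matched in the selected cells, SPP1 was at 0.02, where BTC had 1.25, EREG 1.38 and CFD -1.42. Cluster makeup was not matched in the other cells. The TGF-β1 comparisons share no cells with each other, though both come from 1 library and the same 4 mares.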

How the data were processed

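Single cell RNA sequencing (Chromium 3' v3.1) of fibroblasts pooled from 4 mares was analysed for the control and TGF-β1 libraries. The deposited values are UMI counts per gene and barcode. The authors made them in Cell Ranger (7.1.0 in the methods, 8.0.1 in the file headers) against EquCab3.0. Doublets and mares, which the study separated with Souporcell, were not separated here. The cell filters were 20000 UMIs and 3500 genes or more, with the 13 MT- genes below 4% of UMIs.

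UMIs were summed per group in Python 3.11.15 (numpy 2.4.6, scipy 1.17.1, pandas 2.3.3) and scaled to CPM. Ratios carry exact binomial 95% intervals and no pseudocount. A gene passed the limit at over 1.5-fold with a mean over the 2 groups of 10 CPM or more, and list medians cover genes with at least 1 CPM. In the other cells, genes with 3 or fewer UMIs in a group were left out. The ratios and their intervals were tested on simulated counts drawn without spread between cells, so that spread was not covered. Clusters were built in Seurat 5.3.0 (2000 variable genes, 30 dimensions, resolution 0.5). Scrublet, in scanpy 1.11.5, marked 0 TGF-β1 cells, too few to be of use, and no doublet was removed.

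The cells and the 29 gene lists were chosen with earlier results of these data known. Named were all genes past the limit, the 15 genes with the largest and the 15 with the smallest ratio, EGF ligands and ERBB receptors, up to 4 genes per list, and neighbours of AREG. The genes shown by AREG class were chosen after their values were seen. The alternatives were other AREG, IGFBP3, UMI, CPM and fold limits, removal of likely doublets or cycling cells, other scalings, and reweighting to UMI totals or cluster makeup. Removal of cluster 3 and resolution 0.8 were added after seeing the data. Cells given MFGE8 were not analysed here.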

Additional observations from a re-analysis of the deposited data

How the results depend on the processing

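No paired analysis was possible because the mares, which both libraries share, were not separated here and the counts carry no mare labels. Of the 42 genes past 1.5-fold, none changed direction under the 15 alternatives, and EREG, MFAP4, CFD, COL4A3, SOX5 and SLC22A3 stayed past the limit in all 13 that kept the fold limit and the CPM minimum. BTC stayed between 1.25 and 1.77 but fell under a mean of 10 CPM in 4 of them. These alternatives concern the selected cells. MFAP4 had 0.21 in IGFBP3-positive TGF-β1 cells and 0.18 (-0.05 to 0.41) in control cells. In IGFBP3-positive cells SOX5 was at 20.8 CPM with 0 AREG UMIs. It was at 20.3, 14.9 and 20.9 CPM with 3 to 5, 6 to 14, and 15 or more. The share of AREG-positive cells was 13.7% with at least 2 AREG UMIs, 8.33% with at least 5, 8.38% with at least 100 AREG CPM, 7.67% with 0 IGFBP3 UMIs, 9.17% when cells were thinned before the rule was applied, and 8.57% without cluster 3. The 20 higher genes became 12 with UMI totals matched, 5 with cluster makeup matched, 9 without cluster 3, 91 at 1 CPM and 2 at 2-fold. The 22 lower genes became 6 with cluster makeup matched, 13 without cluster 3, 35 with at least 5 AREG UMIs, 36 with at least 100 AREG CPM, 43 with 0 IGFBP3 UMIs, 204 at 1 CPM and 3 at 2-fold. In IGFBP3-positive cells, the higher genes on the same side numbered 11 of 12 with UMI totals matched, 8 of 9 without cluster 3, 75 of 91 at 1 CPM and 2 of 2 at 2-fold. The lower genes numbered 28 of 33, 11 of 13, 145 of 204 and 3 of 3 under these settings, 30 of 35 with at least 5 AREG UMIs, 32 of 36 with at least 100 AREG CPM and 39 of 43 with 0 IGFBP3 UMIs. In control cells the higher genes numbered 10 of 12, 6 of 8, 60 of 83 and 2 of 2 under the first 4 settings, and the lower genes 12 of 13 without cluster 3, 141 of 178 at 1 CPM, 3 of 3 at 2-fold, 34 of 34 with at least 5 AREG UMIs, 34 of 34 with at least 100 AREG CPM and 41 of 42 with 0 IGFBP3 UMIs. With fewer cells or genes entering, these counts change by construction, and otherwise the cause was not tested. At resolution 0.8 the highest share of AREG-positive cells in a cluster was 32.3%. The depth allows narrow counting intervals for abundant genes, and the spread between mares and between cultures is not in them.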

Other observations

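EREG and BTC also went together in cells without any AREG UMI. These classes were chosen after the values above were seen and are a description over cells of 1 library each. Among the 2202 AREG-negative TGF-β1 cells, BTC was at 0.896 CPM (0.604 to 1.28) in the 805 cells with 0 EREG UMIs at equal depth, 2.21 CPM in the 553 with 1 to 2, 6.24 CPM in the 578 with 3 to 9, and 16.6 CPM (14.4 to 19) in the 266 with 10 or more. The last value is close to the 15.5 CPM of the AREG-positive cells. CFD went the opposite way over these classes, at 77.1, 47.1, 20.9 and 10.2 CPM, and ANKRD1 was at 226, 222, 248 and 361 CPM. HBEGF stayed between 51.8 and 54.6 CPM. The median depth of the 4 classes was 39166, 39849, 42568 and 44147 UMIs.

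In the AREG-negative control cells, BTC was at 1.06, 2.41, 4.37 and 6.58 CPM in cells with 0, 1 to 2, 3 to 9, and 10 or more EREG UMIs, the last class holding 76 cells with 28 BTC UMIs (4.37 to 9.51 CPM). CFD was at 289, 169.7, 115 and 66 CPM and ANKRD1 at 28.9, 38.2, 40.2 and 129 CPM over these classes.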
